A study of Mus musculus with 6 samples.

Results

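The genes described here encode the ligands, receptors, antagonists, SMAD proteins and early target genes of transforming growth factor beta (TGF-beta) and bone morphogenetic protein (BMP) signalling, read in RNA from whole mouse testes. They were taken by symbol from the deposited expression table, with patterns for the Tgfb, Tgfbr, Bmp, Bmpr, Gdf, Acvr, Smad, Id and Ltbp genes and for a set of named antagonists, co-receptors and targets such as Nog, Chrd, Bambi, Eng, Tgfbi, Skil and Tgif1, and 56 of its 14998 genes matched. The control group is 3 libraries from males with the genotype Lats1flox/flox;Lats2flox/flox, and the knockout group is 3 libraries from males that carry these same floxed alleles together with Amh-cre. Floxed Lats1 and Lats2 alleles are thus present in every animal, and the groups differ by Amh-cre, a transgene in which the promoter of the anti-Müllerian hormone gene drives Cre recombinase in Sertoli cells, the supporting cells of the seminiferous cords. The products of these genes, LATS1 and LATS2, are Hippo pathway kinases that hold back the coactivators YAP and TAZ. The labels give no age and no treatment, and they name testes where the series' design text names adrenal glands. Transcripts of Sertoli markers (12 of 12 listed genes in the table, summed level 367 to 394 FPKM in control libraries) and of Leydig cell markers (9 of 9, 865 to 942 FPKM) were present in every control library.

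TGF-beta and BMP ligands are secreted dimers that bring together type I and type II serine/threonine kinase receptors. The activated receptors phosphorylate SMAD2 and SMAD3 (TGF-beta and activin branch) or SMAD1, SMAD5 and SMAD9 (BMP branch), which enter the nucleus with SMAD4, while SMAD6 and SMAD7 inhibit the pathway. In the mouse testis, BMP ligands are known for roles in germ cell formation and maintenance, and TGF-beta and activin for roles in Sertoli cell growth and in matrix production by other somatic cells.

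Levels are the authors' FPKM values (fragments per kilobase of exon, scaled by library). Whole reads could be recovered from them, with totals of 9490735 to 13620087 reads per library, and the matched gene with the fewest had 103 reads over the 6 libraries. Tests used limma on log2(FPKM + 1) over the 13778 genes that averaged 1 FPKM or more, and p-values were adjusted over all of them by the Benjamini-Hochberg method (threshold 0.05). Every adjusted p below is from this two-sided test, and log2 fold changes are on that scale, where low genes show less than their full change. The labels do not tie libraries to separate animals, so the spread behind the p-values may be partly or wholly technical. Over the whole gene, Lats1 had 15.7 ± 0.569 FPKM in controls against 12.7 ± 0.239 FPKM in knockouts (adjusted p = 0.000474), and Lats2 had 15.6 ± 1.22 and 18.0 ± 0.210 FPKM (SD, n = 3 each, adjusted p = 0.0126). The rise of Lats2 runs against its label, but the floxed exons are not named in the labels and other testis cells keep both genes, so neither level checks the deletion. Every direction below rests on the labels. Among cell type marker lists, summed levels of macrophage markers (14 of 15 in the table, all 14 higher) were 78.1 to 89.7 FPKM in controls against 589 to 685 FPKM in knockouts. Mesothelial markers (8 of 8 in the table, 7 higher and 1 lower) had 44.8 to 46.9 and 219 to 237 FPKM. Spermatogonial markers (11 of 13, with 9 of 10 tested lower and none higher) had 247 to 297 and 51.1 to 86.7 FPKM. Leydig cell markers (all 9 lower) had 865 to 942 and 353 to 408 FPKM. Interstitial fibroblast markers (1 higher and 6 lower of 8 tested) had 391 to 463 and 314 to 333 FPKM. Peritubular myoid markers (3 higher and 2 lower of 7) had 226 to 258 and 291 to 318 FPKM. No marker of these lists was at 0 in every library of a group. In whole-organ RNA, fewer cells of a type and less RNA per cell cannot be told apart, and the part of these shifts in the results below was not tested. Control replicate 3 was less like the other controls (median absolute log2 difference 0.105 to each) than those were to each other (0.0772), against 0.0653 to 0.0754 among knockout libraries.

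Of the 56 genes, all of which reached a mean of 1 FPKM, 34 were higher and 13 lower in libraries labelled knockout, and 9 did not pass the test. That is 60.7% higher and 23.2% lower, where over all genes tested 35.2% were called higher and 33.7% lower (68.9% in either direction). The counts by role and by list below stand against these same shares. The median log2 fold change was 0.34, against 0.01 over all genes tested. Among changes past 2-fold on the log2(FPKM + 1) scale, 12 were rises (Bmp3, Gdf6, Nog, Tgfbi, Smad6, Bmp4, Gdf7, Ltbp2, Tgfb1, Bmp8b, Tgfbr2 and Bmp6) and 2 were falls, together 25.0% of the 56, against 15.0% of all genes tested. Control and knockout values were fully separated in 49 of the 56, against 74.3% of all genes tested. These counts describe the list and no test of it was made. For 7 of the genes the mean reached 1 FPKM in 1 of the groups only (4 in knockout and 3 in control libraries), and these passed the filter through the group where they were higher. Without control replicate 3, the counts were 36 higher and 14 lower.

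**Figure D1:**
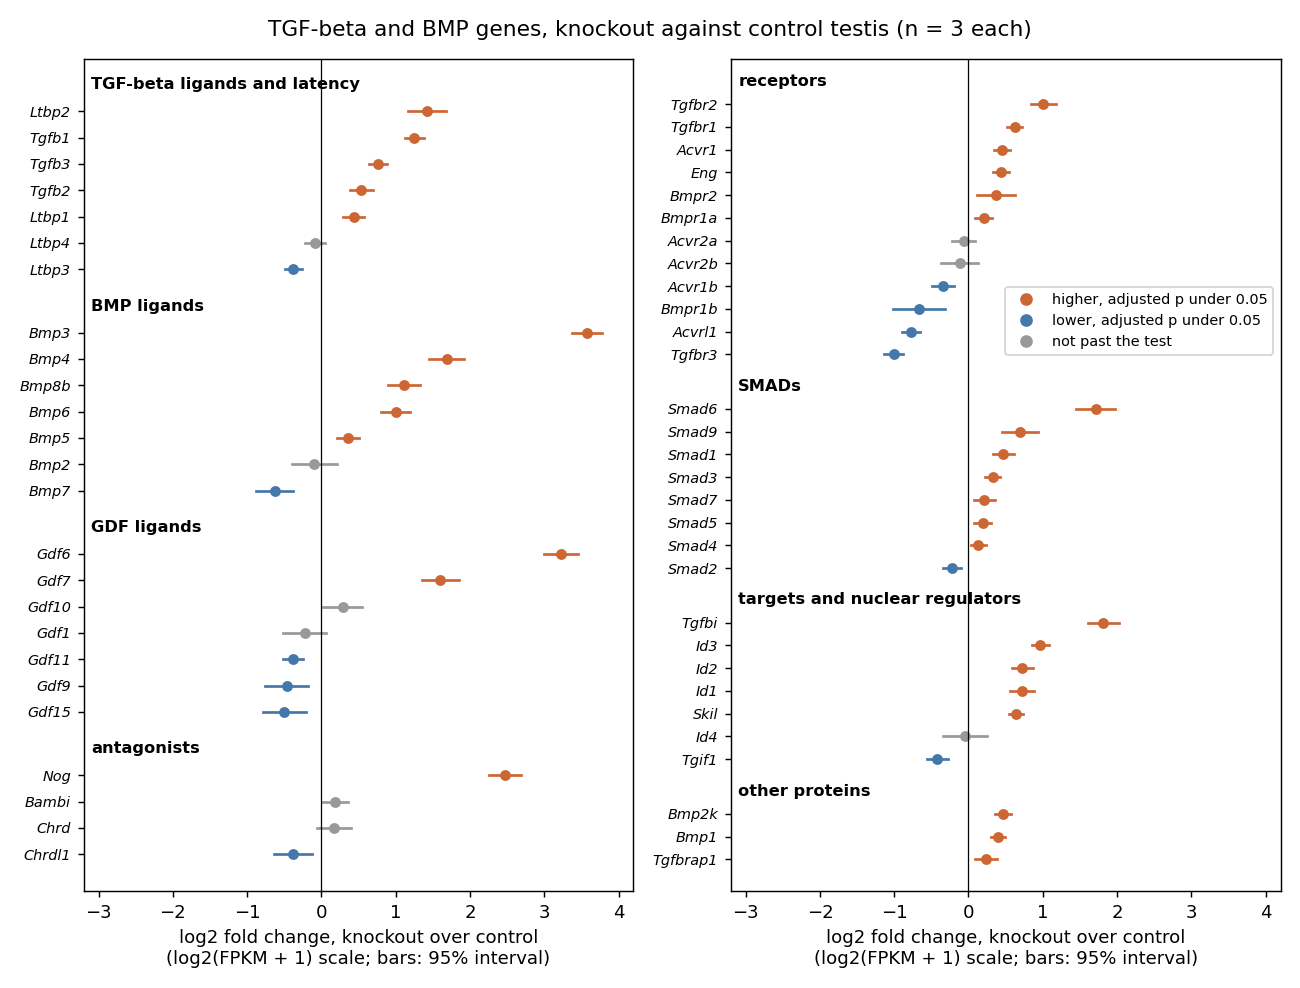
Log2 fold change of 55 of the 56 genes, knockout over control (x axis, log2(FPKM + 1) scale), grouped by role; points are limma estimates, bars their 95% intervals, and colours give the call. Bmp3, Gdf6 and Nog lie farthest to the right, and the SMAD genes apart from Smad6 have log2 fold changes of 0.69 or less.

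All 3 TGF-beta ligand genes rose, and Tgfb1 rose most. Tgfb1, whose product is the widely expressed form of the ligand and is made by many immune cells, had 10.9, 10.5 and 11.5 FPKM across the 3 controls, against 26.7, 29.3 and 26.1 FPKM across the 3 knockouts. Every knockout library lay above every control library, 2.50-fold in the means (log2 fold change 1.25, SE 0.06, adjusted p = 2.86e-07). Tgfb2 had 19.3, 18.0 and 18.5 FPKM across the controls and 24.5, 29.7 and 28.3 FPKM across the knockouts, 1.48-fold (adjusted p = 0.000136), and Tgfb3 had 15.2, 14.2 and 15.4 and 24.4, 27.3 and 26.5 FPKM, 1.75-fold (adjusted p = 3.68e-06). Neither pair of groups overlapped, and knockout replicate 1 was the lowest knockout library for both. Summed over the 3 genes, the level was 44.5 ± 1.58 FPKM in controls against 80.9 ± 5.37 FPKM in knockouts, and the share of Tgfb1 in that sum was 24.0%, 24.6% and 25.3% in control against 35.3%, 34.0% and 32.2% in knockout libraries. Tgfb2 was the leading form in every control library, with 40.8% to 42.6% of the sum, while in knockout libraries the 3 forms each held between 31.7% and 35.3%. In the same libraries the summed macrophage markers stood at 589 to 685 FPKM, against 78.1 to 89.7 FPKM in controls.

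The latent TGF-beta binding proteins tether the inactive ligand to the matrix, and their genes split. Ltbp2, a member of the family that sits on elastic microfibrils and does not bind latent TGF-beta itself, had 2.69, 3.45 and 2.48 FPKM in controls against 8.51, 10.5 and 9.01 FPKM in knockouts, 3.25-fold higher without overlap (log2 fold change 1.42, SE 0.11, adjusted p = 6.56e-06). Ltbp1 rose 1.38-fold, from 12.4 ± 0.116 to 17.1 ± 1.46 FPKM (adjusted p = 0.000249), and Ltbp3 fell 1.32-fold, from 20.2 ± 0.315 to 15.3 ± 0.842 FPKM (adjusted p = 0.000139). Ltbp4, the highest of all 56 genes in control libraries at 38.1 ± 2.13 FPKM, had 35.7 ± 2.37 FPKM in knockout libraries and did not pass (log2 fold change -0.09, 95% interval -0.23 to 0.04).

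Of the 7 BMP ligand genes, 5 rose, Bmp7 fell and Bmp2 did not pass. Bmp3, which encodes an unusual member that opposes bone-forming BMPs, was near the bottom of the list in control libraries, with 0.508, 0.401 and 0.345 FPKM and 13 to 17 reads, and had 14.8, 15.6 and 17.4 FPKM and 535 to 614 reads in knockout libraries. The groups stood far apart, with means 38.1-fold different (log2 fold change 3.58, SE 0.09, adjusted p = 1.65e-08). Bmp4, the ligand needed for the founding of the germ line in the mouse embryo, had 5.07, 5.91 and 5.31 FPKM across the controls and 16.5, 21.3 and 21.7 FPKM across the knockouts, 3.65-fold higher (log2 fold change 1.69, SE 0.10, adjusted p = 1.61e-06). Knockout replicate 1 was lower than the other knockout libraries but still above every control. Bmp6, known for control of hepcidin and iron in the liver, had 5.90, 5.09 and 4.63 FPKM in controls against 11.9, 11.8 and 10.5 FPKM in knockouts, 2.19-fold higher (adjusted p = 1.22e-05). Bmp8b, a ligand gene of male germ cells in the mouse, had 0.625, 0.643 and 0.575 FPKM across the controls and 2.28, 2.73 and 2.50 FPKM across the knockouts, 4.08-fold higher (adjusted p = 1.12e-05). The groups of both genes were fully separated, while the spermatogonial marker list fell in the same libraries (9 of 10 tested members lower, none higher).

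Bmp5 rose 1.32-fold, from 6.82 ± 0.552 to 8.98 ± 0.297 FPKM (adjusted p = 0.00133). The antisense gene model Gm26903 shares 46.7% of the annotated Bmp5 exon bases, and the strand setting of the counting is not given in the sources used here, so reads of the pair cannot be told apart. Antisense models share smaller parts of Bmp2k (14.0%), Tgfb3 (12.4%) and Bmp8b (12.2%). Bmp7, a ligand gene best known from kidney and eye development, had 4.80, 4.95 and 5.78 FPKM in controls against 3.47, 2.46 and 3.10 FPKM in knockouts. It was the BMP ligand gene that fell, 1.72-fold and without overlap (log2 fold change -0.63, SE 0.11, adjusted p = 0.000955). Bmp2 had 2.90, 3.06 and 4.49 FPKM across the controls and 3.26, 3.34 and 2.85 FPKM across the knockouts. Its groups overlapped, and the 95% interval of its log2 fold change ran from -0.40 to 0.21 (adjusted p = 0.543).

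Of the 7 growth and differentiation factor genes, 2 were higher, 3 lower and 2 not past the test. Gdf6, a gene of joint and eye development whose product signals like a BMP, had 1.70, 1.41 and 1.89 FPKM in controls against 24.4, 26.6 and 21.1 FPKM in knockouts. The lowest knockout library was thus far above the highest control, and the means differed 14.4-fold (log2 fold change 3.23, SE 0.10, adjusted p = 3.85e-08). Gdf7, its close relative, known from the spinal cord roof plate and from tendon, had 0 FPKM in control replicates 1 and 3, 0.0522 FPKM in control replicate 2 and 1.79, 2.19 and 2.32 FPKM in the knockout libraries. These values rest on 1 control read against 102 knockout reads, a ratio per total reads of 104 (exact 95% interval 18.2 to 4128, counting error only), and the gene passed the test (adjusted p = 3.31e-06). Gdf7 was at or near 0 in the control testis and Gdf6 was low, and no knockout library of either overlapped the controls.

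The GDF genes that fell did so by less. Gdf11, a ligand gene of axial patterning, went from 7.34 ± 0.172 to 5.40 ± 0.148 FPKM (adjusted p = 0.000365). Gdf15, a distant relative induced by cell stress, had 3.19, 3.29 and 2.45 FPKM across the controls and 2.28, 1.56 and 1.62 FPKM across the knockouts (log2 fold change -0.50, SE 0.13, adjusted p = 0.00785). Gdf9, a gene known from oocytes, had 1.45, 1.16 and 1.87 FPKM in controls against 0.839, 0.669 and 0.869 FPKM in knockouts (log2 fold change -0.47, SE 0.13, adjusted p = 0.00993). The groups of these low genes were separated by small gaps, and the authors' deposited table gives Gdf15 an FDR of 0.0612 and Gdf9 an FDR of 0.0682, both above 0.05. Gdf10 went from 3.63 ± 0.549 to 4.63 ± 0.641 FPKM and did not pass (adjusted p = 0.0502). It passed in 4 of 13 alternatives, whose adjusted p ran from 0.0139 without control replicate 3 to 0.18 without knockout replicate 3. Gdf1 had 1.38 ± 0.295 and 1.03 ± 0.178 FPKM and did not pass (adjusted p = 0.149). Without control replicate 1 it was called lower (adjusted p = 0.0481), the 1 of 13 alternatives in which it passed (highest adjusted p 0.377). The Gdf1 gene model covers the same stretch of chromosome 8, on the same strand, as the ceramide synthase gene Lass1 (Cers1), so reads of the pair cannot be told apart.

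**Figure D2:**
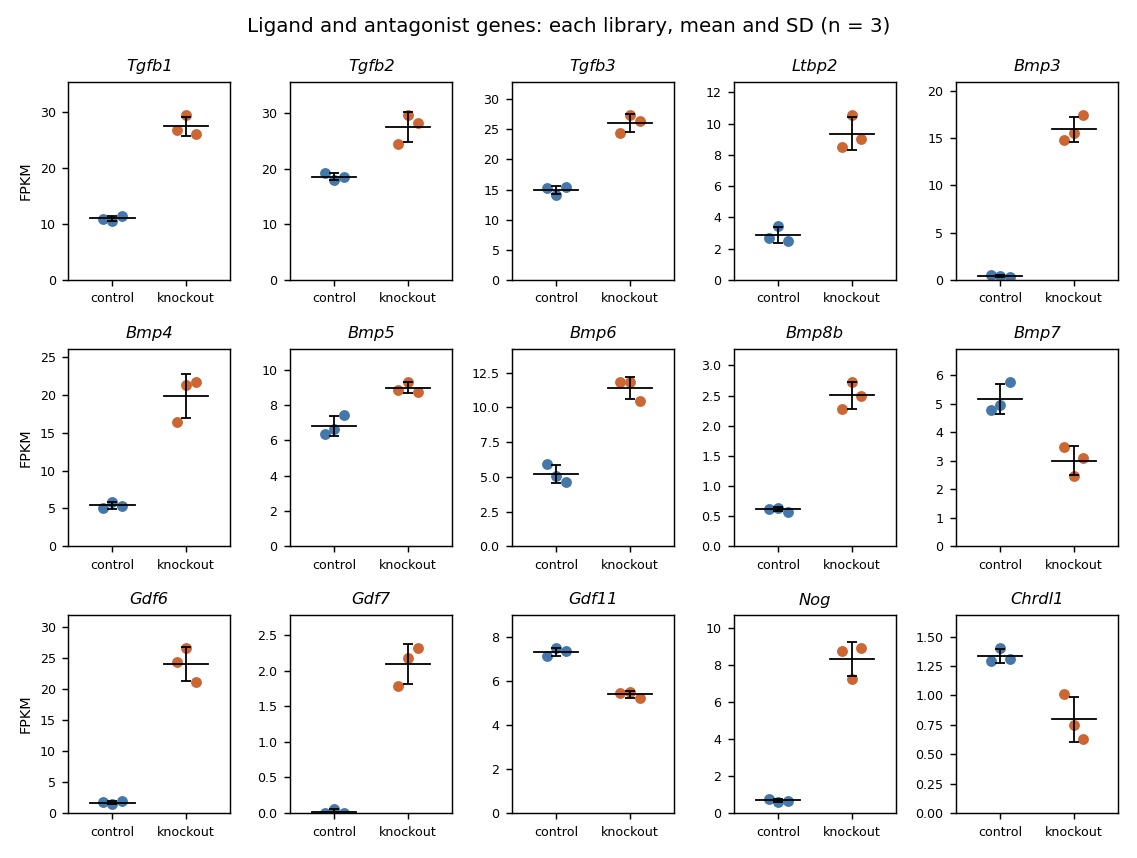
FPKM of 15 ligand, latency and antagonist genes (y axis from 0, separate scale per gene) in each of 3 control and 3 knockout libraries; points are libraries, lines the mean and bars the SD. In all 15 panels the groups do not overlap, as in 74.3% of all genes tested. Bmp3, Gdf6, Gdf7 and Nog are low in control libraries, and Bmp7, Gdf11 and Chrdl1 are lower in knockout libraries. The panels are a choice of genes, and Bmp2, Gdf1, Gdf10 and Ltbp4, whose groups overlapped, are not shown.

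Summed over the 14 BMP and GDF ligand genes, the level was 44.2, 44.7 and 48.0 FPKM across the controls and 101, 108 and 104 FPKM across the knockouts, 2.29-fold higher in the means. The make-up of that sum differed too, as a description without a test. Gdf11, Bmp5 and Bmp4 led in control libraries with means of 16.1%, 14.9% and 11.9% of the sum, followed by Bmp6 with 11.5% and Bmp7 with 11.3%. In knockout libraries Gdf6 held 23.0% ± 2.39, Bmp4 18.9% ± 2.34 and Bmp3 15.2% ± 1.25 (SD, n = 3), from 3.65% ± 0.429, 11.9% ± 1.14 and 0.921% ± 0.215 in controls. Bmp6 held close to the same share in both groups, 11.5% ± 1.85 and 10.9% ± 0.862.

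**Figure D3:**
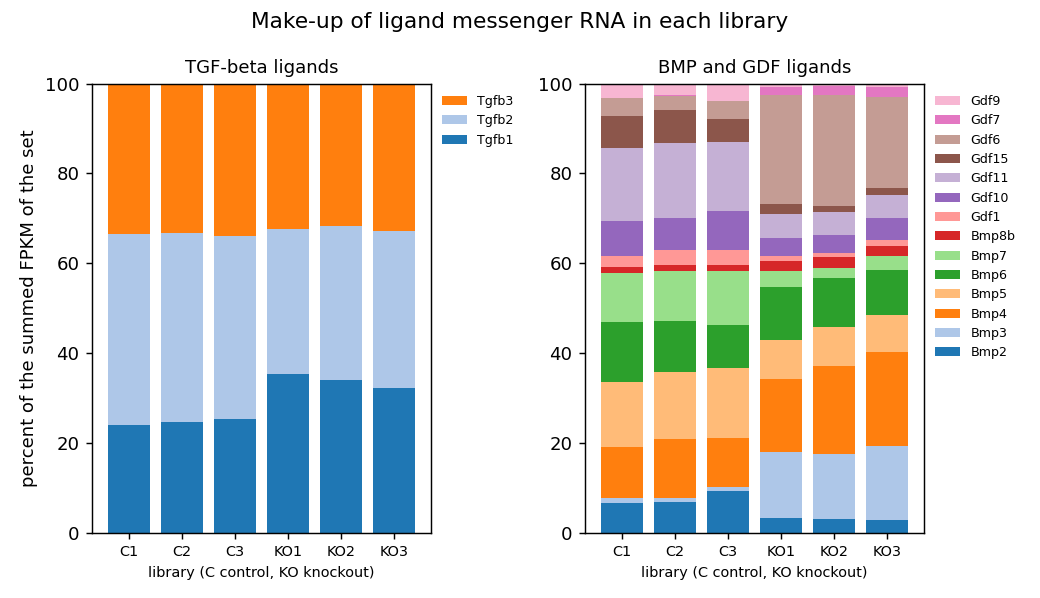
Percent of the summed FPKM (y axis, 0 to 100) held by each gene in each library (C1 to C3 control, KO1 to KO3 knockout), for 3 TGF-beta ligands and 14 BMP and GDF ligands. Gdf6, Bmp3 and Bmp4 take larger parts of the BMP and GDF sum in knockout libraries, and Tgfb1 a larger part of the TGF-beta sum.

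Of the 5 antagonist and decoy genes, 1 rose, 2 fell and 2 did not pass. Noggin, encoded by Nog, binds BMP and related GDF dimers and keeps them from their receptors. Nog had 0.767, 0.611 and 0.645 FPKM in controls against 8.78, 7.25 and 8.90 FPKM in knockouts. Control libraries were all under 1 FPKM and the groups stood well apart, 12.3-fold in the means (log2 fold change 2.47, SE 0.10, adjusted p = 1.38e-07).

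Chrdl1, a chordin-like antagonist gene, had 1.29, 1.40 and 1.31 FPKM in controls against 1.01, 0.751 and 0.627 FPKM in knockouts, lower without overlap (adjusted p = 0.0133), a call that ended without knockout replicate 3 (adjusted p = 0.0544, range over 13 alternatives 0.00265 to 0.0544). Chrd, which encodes chordin, had 1.63 ± 0.238 and 1.95 ± 0.104 FPKM and did not pass (adjusted p = 0.165). Bambi, whose product is a receptor-like decoy without a kinase, had 5.89 ± 0.653 and 6.81 ± 0.125 FPKM and did not pass (adjusted p = 0.0581), though its groups did not overlap. It passed in 3 of 14 alternatives, whose adjusted p ran from 0.00565 (without control replicate 3) to 0.18.

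Of 12 receptor and co-receptor genes, 6 rose, 4 fell and 2 did not pass, and the TGF-beta receptor genes moved in both directions. Tgfbr2, which encodes the ligand-binding type II receptor for TGF-beta, had 23.1, 21.5 and 18.9 FPKM across the controls and 41.6, 46.5 and 42.3 FPKM across the knockouts, 2.05-fold higher (log2 fold change 1.01, SE 0.07, adjusted p = 4.62e-06). Tgfbr1, the gene of its type I partner, had 24.8, 23.4 and 24.5 FPKM in controls against 36.2, 38.6 and 38.7 FPKM in knockouts, 1.56-fold higher (adjusted p = 3.37e-06). The groups of both genes were separated, and for Tgfbr2 control replicate 3 was the lowest control library. Tgfbr3, which encodes betaglycan, a co-receptor that presents TGF-beta2 and binds inhibin, had 12.9, 12.8 and 13.5 FPKM across the controls and 6.26, 5.64 and 6.11 FPKM across the knockouts. It fell 2.18-fold with no overlap (log2 fold change -1.01, SE 0.06, adjusted p = 9.24e-07).

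Acvrl1, which encodes ALK1, a type I receptor of blood vessel endothelium, had 16.2, 14.8 and 15.2 FPKM in controls against 8.37, 9.02 and 8.44 FPKM in knockouts, 1.79-fold lower (log2 fold change -0.77, SE 0.05, adjusted p = 3.3e-06). Eng, which encodes endoglin, the co-receptor that works with ALK1 in those vessels, moved the other way, from 17.6 ± 0.531 to 24.3 ± 1.19 FPKM (adjusted p = 4.74e-05). In the same libraries the 10 endothelial markers had a summed level of 128 to 134 FPKM across the controls and 139 to 160 FPKM across the knockouts, with 4 higher, 1 lower and 5 not past the test. Their part in the change of Acvrl1 and Eng was not tested.

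Among the BMP receptor genes, Bmpr1b, which encodes the type I receptor ALK6, had 1.73, 1.34 and 2.06 FPKM in controls against 0.776, 0.410 and 0.947 FPKM in knockouts. It was low in every library and lower in all 3 knockout libraries, 2.41-fold in the means (log2 fold change -0.67, SE 0.15, adjusted p = 0.00405). Bmpr1a, the far more abundant type I receptor gene in these testes, went from 35.3 ± 1.99 to 40.8 ± 0.868 FPKM (adjusted p = 0.00469). Bmpr2, the gene of the type II BMP receptor, had 27.1, 24.8 and 19.1 FPKM across the controls and 29.1, 32.9 and 29.7 FPKM across the knockouts. Control replicate 3 was the lowest and the other controls came close to the knockout values (adjusted p = 0.0168), and the call ended without knockout replicate 2 (adjusted p = 0.0572, range over 14 alternatives 0.0012 to 0.0572). Acvr1, which encodes the type I receptor ALK2, rose 1.40-fold (adjusted p = 4.85e-05), and Acvr1b, which encodes the activin type I receptor ALK4, fell 1.30-fold (adjusted p = 0.00141). The activin type II receptor genes did not pass, with 95% intervals of the log2 fold change from -0.22 to 0.09 for Acvr2a and from -0.36 to 0.13 for Acvr2b. Without control replicate 3, Acvr2b was called lower (adjusted p = 0.0227), the 1 of 13 alternatives in which it passed (highest adjusted p 0.798).

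All 8 SMAD genes passed the test (68.9% of all genes tested did), 7 higher and Smad2 lower, and most of the changes were small. Smad6, which encodes the inhibitory SMAD that acts mainly on the BMP branch and is itself a BMP target, had 2.99, 3.41 and 4.23 FPKM in controls against 14.1, 15.5 and 12.1 FPKM in knockouts. It was the SMAD gene with the largest change, 3.91-fold and without overlap (log2 fold change 1.71, 95% interval 1.45 to 1.98, adjusted p = 2.77e-06). Smad7, the other inhibitory SMAD gene and a target of TGF-beta, had 11.6, 11.7 and 13.3 FPKM across the controls and 14.0, 15.1 and 13.9 FPKM across the knockouts, a gap of under 1 FPKM between the groups (log2 fold change 0.21, 95% interval 0.07 to 0.36, adjusted p = 0.0134). The call of Smad7 ended without control replicate 1 (adjusted p = 0.0516) and without knockout replicate 2 (0.0525), and the range over 14 alternatives was 0.00166 to 0.0525.

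The receptor-activated SMAD genes of the BMP branch rose, Smad9 most. Smad9 had 2.32, 1.90 and 2.31 FPKM in controls against 4.55, 4.44 and 3.47 FPKM in knockouts, 1.91-fold (adjusted p = 0.000463). Smad1 had 5.82, 5.86 and 6.59 FPKM across the controls and 8.65, 8.66 and 9.10 FPKM across the knockouts, 1.45-fold (adjusted p = 0.000197), and Smad5 rose 1.15-fold (adjusted p = 0.00703). Neither Smad9 nor Smad1 overlapped between groups, with knockout replicate 3 the lowest of its group for Smad9. In the TGF-beta and activin branch, Smad3 had 17.6, 16.7 and 18.2 FPKM in controls against 22.5, 22.2 and 21.7 FPKM in knockouts, 1.27-fold higher (adjusted p = 0.000208), while Smad2 fell 1.17-fold, from 28.7 ± 2.05 to 24.5 ± 0.233 FPKM (adjusted p = 0.00522). Smad4, the shared partner, rose 1.10-fold (adjusted p = 0.0290), a call that ended without any 1 of control replicate 2 or knockout replicates 1, 2 and 3 (adjusted p from 0.0723 to 0.0775, lowest over 14 alternatives 0.0123).

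The ID genes encode inhibitors of basic helix-loop-helix transcription factors and are classic targets of BMP signalling, and 3 of 4 rose. Id3 had 17.0, 16.8 and 18.6 FPKM across the controls and 33.4, 36.4 and 35.4 FPKM across the knockouts, 2.01-fold higher (log2 fold change 0.97, SE 0.05, adjusted p = 7.68e-07). Id1 had 19.2, 19.6 and 21.4 FPKM in controls against 30.4, 36.3 and 34.8 FPKM in knockouts, 1.69-fold higher (adjusted p = 2.47e-05), and Id2, the highest of the family, had 34.0, 29.9 and 35.5 and 56.9, 55.7 and 53.3 FPKM, 1.67-fold (adjusted p = 1.37e-05). For these 3 genes the groups did not overlap. Id4, known in mouse testis as a marker of spermatogonial stem cells, had 4.95, 5.88 and 6.42 FPKM across the controls and 6.84, 4.74 and 5.10 FPKM across the knockouts. Its groups overlapped, and the 95% interval of its log2 fold change ran from -0.34 to 0.24 (adjusted p = 0.754). The 4 genes summed to 76.4 ± 4.95 FPKM in controls against 130 ± 2.96 FPKM in knockouts, and the share of Id4 was 6.59% to 8.14% in control against 3.56% to 5.36% in knockout libraries. Summed spermatogonial markers stood at 247 to 297 and 51.1 to 86.7 FPKM in the same libraries.

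Promoter windows, from 250 bases before to 50 after the RefSeq transcription start on GRCm38.p6, are shown for the ID genes in the promoter table (Id2 and Id3, which rose, and Id4, which did not pass). They are also shown for Smad6, a BMP target that rose, and for Bmp4, 1 of several ligand genes that rose. Capitals mark matches, on either strand, to GGCGCC, a GC-rich motif of BMP-responsive SMAD sites that is its own reverse complement, to CAGAC, the short SMAD-binding motif, and to GGAATG, the motif of the TEAD factors that YAP and TAZ bind. No motif contains another. Id2 (chr12:25096043-25096342, minus strand) held 1 GGCGCC, and Id3 (chr4:136143572-136143871, plus strand) held 2 CAGAC and 1 GGAATG. Id4 (chr13:48260866-48261165, plus strand) held 1 GGCGCC and 1 GGAATG. Smad6 (chr9:64022010-64022309, minus strand) and Bmp4 (chr14:46390620-46390919, minus strand) held no match to these letters in these windows. Bmp5, Bmp6 and Bmp8b also rose, and their windows, not printed, each held 1 CAGAC and no other match. Of further ligand genes that rose, Tgfb2 held 2 CAGAC, and Tgfb1 and Gdf7 held no match.
Id2: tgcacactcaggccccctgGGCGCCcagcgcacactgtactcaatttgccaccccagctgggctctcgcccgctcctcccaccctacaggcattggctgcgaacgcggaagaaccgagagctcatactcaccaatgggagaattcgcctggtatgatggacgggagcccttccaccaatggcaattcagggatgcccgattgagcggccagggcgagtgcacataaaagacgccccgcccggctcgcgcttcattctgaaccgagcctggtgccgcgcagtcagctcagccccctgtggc
Id3: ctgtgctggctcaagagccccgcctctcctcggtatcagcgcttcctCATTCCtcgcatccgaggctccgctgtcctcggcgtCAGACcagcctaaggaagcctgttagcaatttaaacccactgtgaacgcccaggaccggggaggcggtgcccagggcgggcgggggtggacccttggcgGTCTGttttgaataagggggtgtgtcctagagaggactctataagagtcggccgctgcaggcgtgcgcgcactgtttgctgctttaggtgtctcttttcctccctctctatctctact
Id4: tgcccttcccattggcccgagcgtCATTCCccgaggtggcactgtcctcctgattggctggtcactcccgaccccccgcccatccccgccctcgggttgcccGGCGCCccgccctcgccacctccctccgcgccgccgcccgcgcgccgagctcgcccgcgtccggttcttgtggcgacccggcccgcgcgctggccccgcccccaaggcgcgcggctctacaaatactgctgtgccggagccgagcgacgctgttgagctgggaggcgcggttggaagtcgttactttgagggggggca
Smad6: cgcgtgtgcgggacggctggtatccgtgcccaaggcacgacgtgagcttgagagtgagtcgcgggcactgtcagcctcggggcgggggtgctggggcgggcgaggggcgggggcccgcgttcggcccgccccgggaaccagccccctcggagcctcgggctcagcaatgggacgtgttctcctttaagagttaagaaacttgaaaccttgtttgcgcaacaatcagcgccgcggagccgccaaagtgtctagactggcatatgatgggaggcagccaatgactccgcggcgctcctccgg
Bmp4: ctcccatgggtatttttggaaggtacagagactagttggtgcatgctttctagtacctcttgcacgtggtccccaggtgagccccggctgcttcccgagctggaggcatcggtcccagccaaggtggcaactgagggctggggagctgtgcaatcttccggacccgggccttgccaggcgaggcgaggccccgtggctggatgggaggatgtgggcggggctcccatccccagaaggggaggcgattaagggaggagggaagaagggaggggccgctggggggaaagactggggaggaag

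Of all 32851 promoter windows in the table, 11.9% held GGCGCC, 49.6% CAGAC and 14.7% GGAATG. Of the 56 genes, 38 had 53 windows there, since a gene can have several starts, of which 17 held GGCGCC (32.1%), 28 CAGAC (52.8%) and 4 GGAATG (7.55%). These matches describe the letters in the windows and nothing about binding.

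Tgfbi, which encodes a matrix protein induced by TGF-beta, had 15.1, 13.3 and 17.9 FPKM in controls against 55.9, 55.1 and 58.2 FPKM in knockouts. It ranked 21 of the 56 by mean level in control libraries and first in knockout libraries, 3.66-fold higher (log2 fold change 1.82, SE 0.09, adjusted p = 4.68e-07). Macrophages also express this gene, and the summed macrophage markers of each library are given above. Skil, which encodes the SMAD corepressor SnoN and is itself a TGF-beta target, rose 1.59-fold, from 16.4 ± 0.0870 to 26.0 ± 0.837 FPKM (adjusted p = 1.78e-06). Tgif1, the gene of another SMAD corepressor, fell 1.36-fold, from 16.8 ± 0.874 to 12.3 ± 0.958 FPKM (adjusted p = 0.000384).

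**Figure D4:**
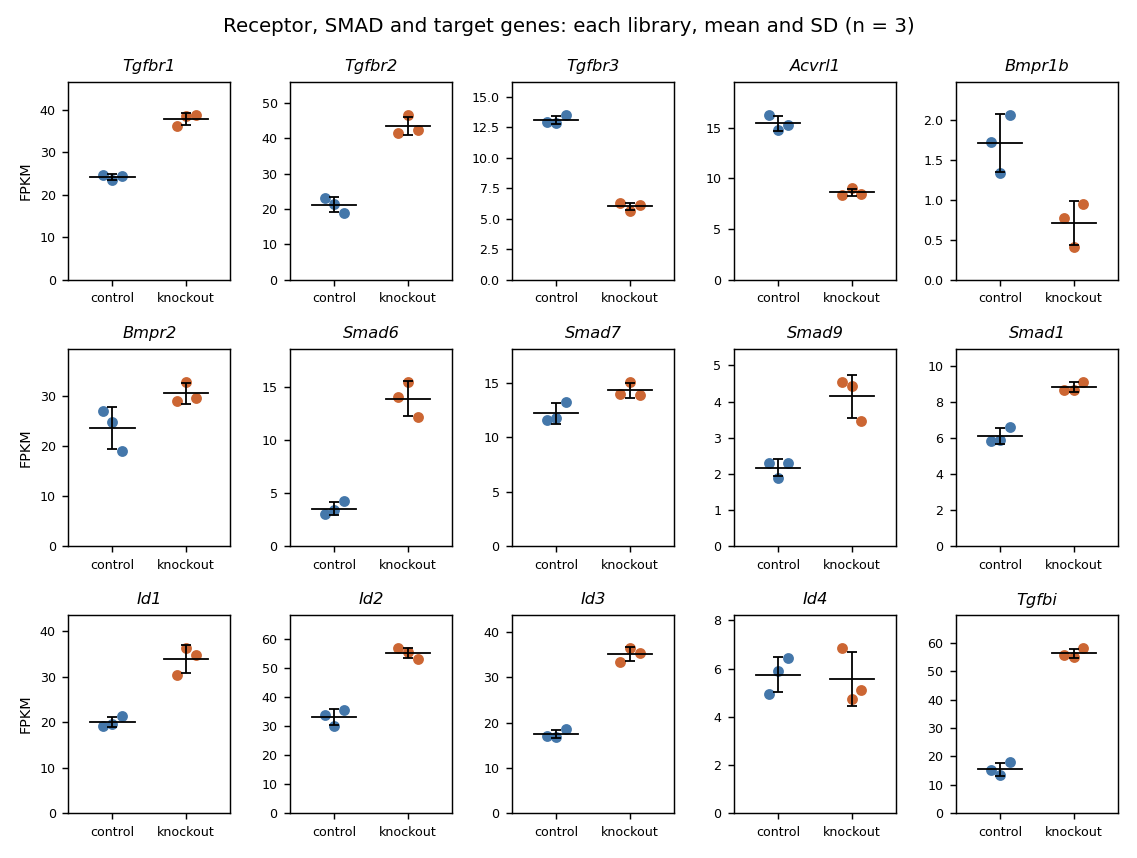
FPKM of 15 receptor, SMAD and target genes (y axis from 0, separate scale per gene) in each of 3 control and 3 knockout libraries; points are libraries, lines the mean and bars the SD. The groups are separated in each panel except Id4, where control libraries span 4.95 to 6.42 FPKM and knockout libraries 4.74 to 6.84 FPKM. The panels are a choice of genes, and Acvr2a and Acvr2b, whose groups overlapped, are not shown.

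Of the genes that share a name with the family but encode other proteins, all 3 rose modestly. Bmp1, which encodes a metalloprotease that trims procollagen and cleaves chordin, had 33.2, 31.5 and 32.3 FPKM across the controls and 41.4, 44.6 and 42.6 FPKM across the knockouts (adjusted p = 4.72e-05). Bmp2k, a kinase gene induced by BMP2, had 9.78, 10.1 and 9.58 FPKM in controls against 13.5, 14.5 and 13.8 FPKM in knockouts (adjusted p = 3.79e-05). Tgfbrap1, which encodes a receptor-associated adaptor, had 7.76, 9.20 and 8.47 FPKM across the controls and 10.1, 10.3 and 10.1 FPKM across the knockouts (adjusted p = 0.00940). The groups of each were separated, with folds from 1.20 to 1.42.

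Other genes of the pathway were read from a separate list of 93, of which 80 were in the table and 73 were tested, with 37 higher, 20 lower and 16 not past the test (78.1% called, against 68.9% of all genes tested). In the list of activins, inhibins and related genes, which also holds the AMH receptor gene Amhr2, all 6 tested genes were lower. Over all genes tested, 33.7% were lower. Amh, the gene of anti-Müllerian hormone whose promoter drives the Cre transgene, fell from 66.1 ± 2.71 to 1.03 ± 0.374 FPKM, and Lefty2, a secreted inhibitor of Nodal, had 10.8, 10.9 and 12.5 FPKM in controls against 1.03, 0.589 and 0.541 FPKM in knockouts, 15.9-fold lower (adjusted p = 1.82e-07). Inhba, the gene of the activin A subunit, had 44.5, 46.4 and 35.1 FPKM in controls against 21.6, 21.6 and 22.1 FPKM in knockouts, 1.93-fold lower (adjusted p = 3.22e-05), and Inhbb, a Sertoli cell subunit gene, fell 1.49-fold from 39.3 ± 1.03 FPKM (adjusted p = 4.39e-06). Sertoli markers, a list that holds Amh and Inhbb, summed to 367 to 394 FPKM in controls against 200 to 228 FPKM in knockouts, with 9 of 12 lower and 3 higher.

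Extracellular regulators split, with 7 higher, 8 lower and 2 not past of 17 tested. Bmper, which encodes a BMP-binding protein of the endothelium, had 5.14, 4.90 and 4.16 FPKM in controls against 26.8, 32.1 and 30.1 FPKM in knockouts, 6.27-fold higher (adjusted p = 7.44e-08), and Crim1, a membrane protein gene with chordin-like repeats, rose 4.86-fold to 59.5 ± 3.21 FPKM (adjusted p = 8.37e-09). Sostdc1, a gene of a secreted BMP and WNT antagonist, fell 2.27-fold from 39.8 ± 3.67 FPKM (adjusted p = 6.89e-06), Rgma, a BMP co-receptor gene, fell 2.56-fold (adjusted p = 5.98e-05), and Fst, which encodes the activin-binding protein follistatin, fell 1.73-fold, from 3.71 ± 0.292 to 2.15 ± 0.181 FPKM (adjusted p = 0.000367). Among activators and carriers of latent TGF-beta, 7 of 10 rose, 2 fell and 1 did not pass. Thbs1, which encodes thrombospondin 1, an activator of latent TGF-beta, had 8.83, 8.72 and 8.98 FPKM in controls against 23.9, 27.7 and 19.7 FPKM in knockouts (adjusted p = 6.26e-06), and the proprotein convertase gene Pcsk6 rose 1.65-fold (adjusted p = 0.00808). Lrrc32, which encodes GARP, a surface carrier of latent TGF-beta, fell 1.44-fold (adjusted p = 0.000504), and the integrin gene Itgb8, whose product releases the ligand, fell 1.26-fold (adjusted p = 0.00764).

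Inside the cell, 9 of 17 regulators rose, 3 fell and 5 did not pass. Pmepa1, a TGF-beta target whose product dampens SMAD signalling, had 11.7, 10.8 and 14.9 FPKM in controls against 25.0, 29.6 and 27.4 FPKM in knockouts, 2.19-fold higher (adjusted p = 2.92e-05), and the ubiquitin ligase gene Smurf1 rose 1.59-fold (adjusted p = 7.77e-06). Tgif2 and Trim33, genes of nuclear restraints on SMAD activity, fell 1.36-fold and 1.24-fold (adjusted p = 0.000585 and 0.000670). Of 17 TGF-beta response genes tested, 12 rose, 1 fell and 4 did not pass, and several of the list are known YAP/TAZ targets too. The cell cycle inhibitor genes Cdkn2b and Cdkn1a rose from 1.54 ± 0.232 and 1.52 ± 0.623 FPKM to 69.8 ± 2.06 and 51.5 ± 3.35 FPKM (adjusted p = 1.6e-09 and 6.72e-08). Snai2, a transcription factor gene of mesenchymal cells, was the member that fell, from 29.2 ± 1.71 to 21.4 ± 1.99 FPKM (adjusted p = 0.000600), and Col1a1, Col1a2, Zeb1 and Zeb2 did not pass. Of 6 BMP response genes tested outside the 56, 2 rose and 4 did not pass (33.3% called, against 68.9% of all genes tested). Atoh8 had 2.42, 3.21 and 2.91 FPKM in controls against 11.3, 12.4 and 9.93 FPKM in knockouts, 3.94-fold higher (adjusted p = 1.62e-06). Gata3 rose from 0.593 ± 0.209 to 5.44 ± 0.457 FPKM (adjusted p = 1.26e-06), and Gata2, Hey1, Tbx3 and Vdr did not pass. Msx2 and Runx2, also of this list, averaged under 1 FPKM and were not tested. Msx2 went from 1.27 ± 0.0905 to 0.187 ± 0.00970 FPKM, and Runx2 from 0.317 ± 0.0150 to 1.12 ± 0.280 FPKM.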

How the data were processed

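RNA was extracted from frozen whole testes with an RNeasy Mini kit and aligned with STAR, per the labels' protocols. The submitters' processing notes name GRCm38 and DESeq2 1.22.2, and neither they nor the labels name the counting tool or its strand setting. The authors deposited 1 table of 14998 genes with FPKM per library, log2 group means and log2 fold changes, p-values with FDR, and −log10 p-values, per the file headers. Every deposited gene reaches 1 FPKM in at least 1 library, so counts over the table describe a list already filtered.

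Libraries were grouped by the genotype label and matched to columns by title (3 control, 3 knockout). The 56 genes and all lists were chosen with earlier results of these data known. The deposited FPKM values were tested with limma 3.58.1 (R 4.3.3, lmFit and eBayes with trend) on log2(FPKM + 1) for the 13778 genes that averaged 1 FPKM or more, two-sided, and p-values were adjusted over all of them (Benjamini-Hochberg, threshold 0.05). Fold changes in words are ratios of mean FPKM. FPKM steps came out as whole reads for 100% of genes, within 0.01 reads or a wider margin for genes with many reads. For 52.6% of genes the step itself was searched for, so whole reads there are no independent check. The read scale may be off by a whole factor for some genes, so read numbers cover counting error only. Counts cover all 56 genes. Values in every library are given for 14 genes listed by name, for up to 4 genes with the largest calls in each role, and for some others. Each list of other pathway genes names its 2 largest rises and 2 largest falls among calls, with Inhba, Inhbb and Fst. Some genes of these lists are not reported here. The genes named there as not past the test, Msx2, Runx2, Cer1, Hamp2 and the Smad6 promoter were chosen after their values were seen. Alternatives were other pseudocounts, filters and scalings, limma-voom on recovered reads, a replicate block, each library left out, a fold threshold and the authors' deposited FDR. Promoter windows came from RefSeq (GRCm38.p6), and among the BMP ligand genes only that of Bmp4 is printed.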

Additional observations from a re-analysis of the deposited data

How the results depend on the processing

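Of the 56 genes, 31 of 34 higher and 10 of 13 lower calls held in every alternative that tested the gene and kept the adjusted p as the only threshold, and no call changed direction there. The exceptions among these were Bmpr2, Smad7 and Smad4, and Gdf15, Gdf9 and Chrdl1, with their values above. With a mean of at least 5 FPKM, 8 of the 56 were lower and 30 higher, since fewer genes were tested. Requiring more than 1.5-fold in addition to the adjusted p ended more calls, and left 3813 genes over the table (9492 without it), 19 higher and 5 lower of the 56, and 23 higher and 9 lower of the other pathway genes. Leaving out each library in turn gave 8639 to 9584 genes over the table, 31 to 36 higher and 12 to 14 lower of the 56, and 36 to 38 higher and 19 to 22 lower of the other pathway genes. By the authors' deposited FDR, 8250 genes passed, with 34 higher and 11 lower of the 56. On recovered reads, limma-voom gave 9450 genes, with 35 higher and 13 lower. Other pseudocounts, no filter and median-ratio scaling left the 56 at 34 to 36 higher and 13 lower.

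With the replicate number as a block, 9359 genes passed, 35 higher and 13 lower of the 56 and 36 higher and 20 lower of the other pathway genes, and Gdf10 gained a call (adjusted p = 0.0184). Deviations of same-numbered libraries correlated at -0.00713, -0.016 and 0.0966 across genes, and those of other pairs at -0.158 to 0.142. Such correlations cannot tell whether the labels' numbers pair the libraries. The fewest reads were those of Gdf7, whose control level rests on 1 read. For low genes such as Gdf9, Bmpr1b and Chrdl1, 3 libraries a group limit what can be resolved.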

Other observations

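The 56 genes lie on 19 chromosomes, and 2 pairs of them lie within 100 kb of each other. Tgfbi and Smad5 on chromosome 13 are 63.7 kb apart and both were higher, and Acvrl1 and Acvr1b on chromosome 15 are 28.8 kb apart and both were lower. The antagonist gene Cer1 and the BMP-responsive hepcidin gene Hamp2, outside the 56, are listed at 0 in every knockout library. Both were low in controls too, with 1.82, 1.73 and 1.05 FPKM for Cer1 and 0.723, 1.51 and 0.756 FPKM for Hamp2. Both averaged under 1 FPKM over the 6 libraries and were not tested.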
